A study of Mus musculus with 2 samples.

Results

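The cells described here came from the newborn mouse cerebral cortex, the tissue that the methods of the study name. They were taken as cycling by 3 marker genes, a name that did not hold for all of them. In them no transcript of Dlx1, Dlx2 or Dlx5 was counted. They were chosen by raw UMIs, each UMI being a tagged transcript molecule counted once. Of the barcodes that reached 500 genes and held no more than 10% of their UMIs in mitochondrial genes (kept cells), those with at least 3 UMIs of Mki67, Top2a and Cenpf together (the cycling sum) and no UMI of Dlx1, Dlx2, Dlx5, Gad2 or Pdgfra were taken. They also had to hold fewer than 3 UMIs of each of 3 marker sums, for microglia (C1qa, C1qb, C1qc), endothelium (Cldn5, Flt1, Pecam1) and mural or fibroblast cells (Rgs5, Col1a2). This left 334 members of 19913 barcodes, 194 from WT and 140 from cKO. The rule used the measured values themselves, so the levels of these genes in the members are a description.

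The series compared single-cell RNA-seq (10x Chromium) of the brain at postnatal day 0 between control and STING conditional knockout mice, both of the C57BL/6 strain. STING, the product of Tmem173, is an adaptor of cytosolic DNA sensing. The WT library came from mice labelled WT, which the methods of the study also call STING fl/fl, so that the controls may carry floxed alleles without Cre. The cKO library came from STINGf/f;Nestin-Cre mice, in which Nestin-Cre is active in neural stem and progenitor cells and their offspring and is not expected in microglia or endothelium. Each group was 1 library, the number of pups behind it was not stated in the sources used here, and no test of the genotype was possible. All intervals given with bounds are 95% intervals for counting error alone, and none of them measures the spread between mice. They are exact, except those of differences between shares, which combine the exact bounds of both shares and are approximate.

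As background, the germinal zones of the cortex hold radial glia, which line the ventricle and express Pax6, Sox2 and Slc1a3, and intermediate progenitors, which express Eomes and divide a few times before making glutamatergic neurons. Around birth the same zones turn to making glia, and progenitors with Egfr, Olig1 and Olig2 become frequent. Progenitors from the ventral telencephalon, in contrast, express Dlx genes and make GABAergic neurons. A dividing cell passes through G1, DNA replication (S), G2 and mitosis (M), and genes for replication and for mitosis are switched on in turn.

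The libraries held 58319391 (WT) and 56883032 (cKO) UMIs in 6766 and 6080 kept cells. Members were deeper than other kept cells, with a median of 11727.5 and 14704 UMIs against 6536.5 and 7517.5. Tmem173 gave 8 UMIs in 7 of the 194 WT members, a share of 3.61% (1.46 to 7.29), and none in the 140 cKO members, where a count of 0 (taken as up to 3 counts) allows a share of cells with a UMI of up to 2.14%. In all kept cells it gave 132 UMIs in WT and 18 in cKO, of which microglia cells (at least 3 C1q UMIs) held 23 and 3. The targeted gene was therefore too sparse to check the genotype within the members. Xist, which is expressed from the inactive X chromosome of females, gave 0 and 2389 UMIs in WT and cKO members, whereas 4 genes of the Y chromosome gave 425 and 0. By these genes the libraries differed in sex as well as in genotype, and the contributions of sex and genotype cannot be told apart in any comparison of cKO with WT below. Of 19 barcode sequences that both libraries shared, 1 was a member in either library and none in both.

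Most of the selection fell on the cycling sum and on the Dlx genes. In WT, 612 kept cells had a cycling sum of at least 3, and 278 of these had no UMI of the 4 Dlx and Gad2 genes. In cKO the same steps left 365 and 182 cells. The Pdgfra, microglia, endothelial and mural limits then removed the cells down to 194 and 140. At the edge of the rule, the 27 WT and 18 cKO members with a cycling sum of exactly 3 had a median of 13 and 22.5 UMIs over 42 G2/M genes. The 39 and 35 cells just outside it, with a sum of 2, had a median of 5 and 7. Cells just outside the Dlx limit, with 1 or 2 UMIs of the 4 genes (62 and 36 cells), held 13.2 and 6.57 CPM (UMIs scaled to a common library total) of Gad1, Dlx6 and Dlx6os1 together. Members held 6.80 and 1.82 CPM of them, and cycling cells with at least 3 Dlx and Gad2 UMIs 547 and 410 CPM.

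The members were not of a single kind. Their marker genes were looked up in each cell, and 3 gene sets picked out minorities that a count of at least 10 UMIs separated from the rest. The sets and this limit were chosen after the values were seen. Set sums were not close to the limit on the upper side: Reln, Lhx1, Lhx5, Nhlh2 and Trp73 together gave at least 36 UMIs in each cell called Reln-high in WT and 54 in cKO, and at most 4 and 2 UMIs in any other member. Foxj1, Ccdc153, Tmem212, Meig1 and Tekt1 gave at least 22 and 51 UMIs in cells called Foxj1-high, and at most 9 and 3 in the others.

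Reln-high cells made up 24 of 194 WT members (12.4%, 8.09 to 17.8) and 27 of 140 cKO members (19.3%, 13.1 to 26.8). Reln encodes the secreted glycoprotein reelin, and it gave 1188 and 2066 UMIs in these cells. Nhlh2 and Lhx5, neuronal transcription factors, gave 377 and 777 and 78 and 62 UMIs. Tubb3, the neuronal beta-tubulin, gave 1013 and 1734 UMIs, and Sox2, a progenitor factor, 4 and 1. These cells met the rule through Cenpf: Cenpf, a kinetochore protein of G2 and mitosis, gave 108 and 155 UMIs, but Mki67 gave 1 and 4 and Top2a 1 and 2. In 22 of 24 and 22 of 27 of them the cycling sum came from Cenpf alone. The 42 G2/M genes, which do not include the genes of the rule, gave a median of 3 and 4 UMIs per cell, with a highest value of 8 and 13. The label of cycling progenitors thus did not hold for the Reln-high cells, which carried Cenpf and neuronal transcripts with few UMIs of other mitotic genes. Their 28 G1/S genes stood at 470 and 390 CPM, against 3764 and 3315 CPM in the remaining members described below.

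Cenpf was then looked up in all Reln-high cells, members included. Among the 81 and 94 kept cells with at least 10 UMIs of the set, 75.3% and 61.7% had a Cenpf UMI at a median depth of 16262 and 17312 UMIs. After each cell was thinned to 3000 UMIs the shares were 32.1% (22.2 to 43.4) and 25% (16.6 to 35.1). Kept cells with a UMI of Neurod6, a transcript of postmitotic projection neurons, and no UMI of the Reln set served for comparison. Their thinned shares were 3.38% (2.75 to 4.11) and 1.93% (1.45 to 2.53), at median depths of 7988.5 and 8712 UMIs before thinning. A Neurod6 UMI was also in 18.2% and 24.2% of microglia cells, so this comparison set may hold other cells too. Of the Reln-high cells 24 and 27 were members, chosen in part by Cenpf. Mki67 was in 1.23% (0.0313 to 6.69) and 2.17% (0.264 to 7.63) of thinned Reln-high cells against 2.79% and 1.75% of Neurod6 cells.

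Foxj1-high cells made up 17 WT members (8.76%, 5.19 to 13.7) and 4 cKO members (2.86%, 0.784 to 7.15). Foxj1, the transcription factor that switches on genes of motile cilia, gave 467 and 142 UMIs, and Tekt1, a protein of ciliary microtubules, 208 and 28. Top2a, the topoisomerase that untangles DNA before division, gave 180 and 39 UMIs and was in each of the cells, but Mki67 gave 3 and 0. The G2/M genes gave a median of 74 and 71 UMIs per cell, at median depths of 18982 and 20301 UMIs. As CPM they stood at 3545 and 3521, between the Reln-high cells (202 and 188) and the remaining members described below (10934 and 13662). The 28 G1/S genes stood at 534 and 711 CPM in Foxj1-high cells, nearer to the Reln-high cells than to the remaining members. A further WT cell held 382 UMIs of Lyz2, S100a8 and S100a9, which are genes of myeloid cells, with 433 UMIs of the G2/M genes.

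**Figure D1:**
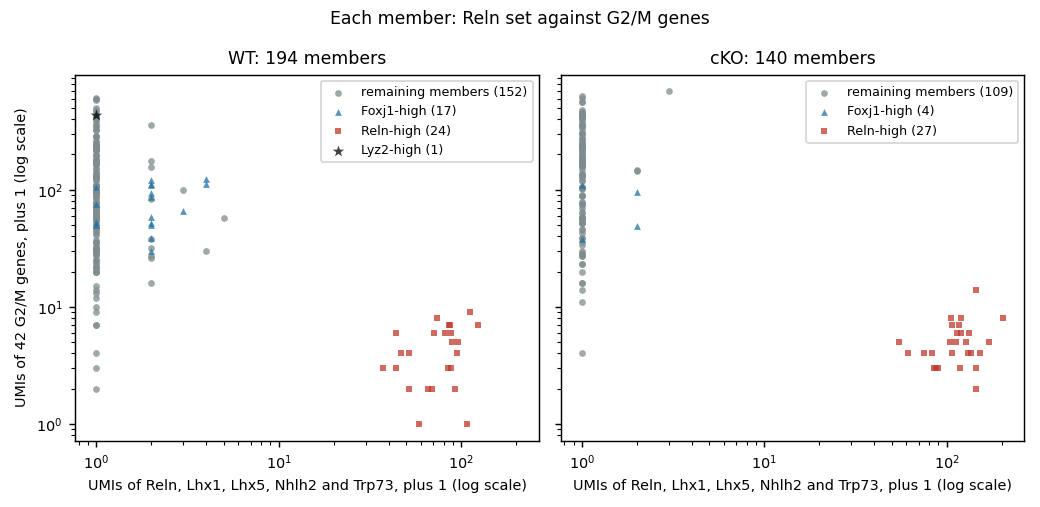
UMIs of Reln, Lhx1, Lhx5, Nhlh2 and Trp73 (x axis) against UMIs of the 42 G2/M genes, which the rule did not use (y axis), each plus 1 on a log scale, with 1 point per member and WT and cKO in separate panels. The Reln-high cells stand apart at the lower right, at medians of 3 and 4 G2/M UMIs, while the remaining members reach 602 and 693 at the left.

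The remaining members, 152 in WT (78.4%) and 109 in cKO (77.9%), carried the genes of dividing progenitors. Their median depth was 10845.5 and 12130 UMIs. Mki67, the antigen of proliferating cells, gave 659 and 587 UMIs and was in 80.3% and 90.8% of cells. Top2a was in 89.5% and 82.6% and Cenpf in 86.8% and 89.0% of them. Sox2 was in 93.4% and 98.2% of cells at 603.9 and 803.2 CPM, and Csf1r, a receptor of microglia, had no UMI in either library. The descriptions that follow rest on these cells unless all members are named.

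Genes of the cell cycle set the members apart from noncycling progenitors. The rule for naming genes took the 10 with the highest ratio of members over noncycling cells with Eomes or with radial glia markers, in the library with the lower ratio. They were Pbk, Cdk1, Ube2c, Ccnb1, Ccna2, Prc1, Cks2, Cenpa, Cdca8 and Reln. Cdk1, Ccnb1 and Ccna2 encode the kinase and cyclins that drive entry into mitosis, Ube2c works in the degradation of cyclins, Prc1 and Cdca8 act at the spindle midzone and centromere, and Cenpa is the histone variant of the centromere. Reln was on the list through the Reln-high cells, and among the remaining members Tpx2, a spindle factor, took a place in it. The cells were chosen by Mki67, Top2a and Cenpf, so that genes of mitosis lead this list is not independent of the choice.

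Mitotic and replication genes are known for different promoter elements, a cell cycle homology region (CHR) with CCAAT boxes for the former and E2F sites for the latter. The promoter windows of the 3 genes of the G2/M list and the 3 of the G1/S list with the highest level in the members are shown, as examples of the lists that the description of the cycle rests on. Windows run from 250 bases before to 50 after the start of transcription, 300 bases in all, and are read 5′ to 3′ on the strand of the gene from RefSeq (GRCm38.p6). Capitals mark TTTGAA (CHR) and CCAAT on either strand, and none of the 6 windows held the E2F letters given below. The windows are Hmgb2 at chr8:57511593-57511892 (plus strand), Ube2c at chr2:164769679-164769978 (plus), Cenpa at chr5:30666636-30666935 (plus), Dut at chr2:125247265-125247564 (plus), Rrm2 at chr12:24708004-24708303 (plus) and Slbp at chr5:33652525-33652824 (minus).
Hmgb2: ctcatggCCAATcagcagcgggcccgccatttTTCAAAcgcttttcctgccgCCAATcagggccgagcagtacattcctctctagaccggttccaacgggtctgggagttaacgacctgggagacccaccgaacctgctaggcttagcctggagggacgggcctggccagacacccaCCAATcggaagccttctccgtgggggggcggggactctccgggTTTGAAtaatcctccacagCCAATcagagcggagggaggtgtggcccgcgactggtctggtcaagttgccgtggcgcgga
Ube2c: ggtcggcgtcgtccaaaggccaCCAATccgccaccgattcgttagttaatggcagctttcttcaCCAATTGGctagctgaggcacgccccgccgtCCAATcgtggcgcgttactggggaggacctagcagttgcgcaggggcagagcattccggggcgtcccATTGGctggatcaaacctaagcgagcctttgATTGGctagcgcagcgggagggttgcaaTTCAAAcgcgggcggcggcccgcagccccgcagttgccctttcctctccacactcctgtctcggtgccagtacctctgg
Cenpa: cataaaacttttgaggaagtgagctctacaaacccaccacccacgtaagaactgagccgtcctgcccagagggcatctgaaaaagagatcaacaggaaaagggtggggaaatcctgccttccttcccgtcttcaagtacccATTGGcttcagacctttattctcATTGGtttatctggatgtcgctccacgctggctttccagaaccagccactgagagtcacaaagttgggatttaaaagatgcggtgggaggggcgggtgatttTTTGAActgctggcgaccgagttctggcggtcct
Dut: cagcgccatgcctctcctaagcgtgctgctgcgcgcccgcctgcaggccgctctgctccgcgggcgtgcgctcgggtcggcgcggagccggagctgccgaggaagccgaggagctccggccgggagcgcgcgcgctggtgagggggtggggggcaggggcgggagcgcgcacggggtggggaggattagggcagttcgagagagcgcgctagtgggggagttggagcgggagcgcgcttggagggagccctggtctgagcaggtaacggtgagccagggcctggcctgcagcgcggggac
Rrm2: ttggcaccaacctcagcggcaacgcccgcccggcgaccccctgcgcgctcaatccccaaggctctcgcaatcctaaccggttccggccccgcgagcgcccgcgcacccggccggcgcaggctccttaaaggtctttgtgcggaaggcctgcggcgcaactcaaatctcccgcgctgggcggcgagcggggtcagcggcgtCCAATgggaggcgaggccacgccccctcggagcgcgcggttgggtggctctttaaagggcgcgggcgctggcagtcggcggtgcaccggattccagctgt
Slbp: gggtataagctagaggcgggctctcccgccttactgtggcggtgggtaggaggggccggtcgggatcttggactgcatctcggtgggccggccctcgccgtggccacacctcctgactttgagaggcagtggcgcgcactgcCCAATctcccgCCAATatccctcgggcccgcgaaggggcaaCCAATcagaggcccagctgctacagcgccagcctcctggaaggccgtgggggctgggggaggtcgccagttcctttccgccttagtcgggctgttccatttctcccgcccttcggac

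Hmgb2, a chromatin protein, had 2 CHR and 4 CCAAT matches, Ube2c 1 and 6, and Cenpa 1 and 2, whereas Dut, Rrm2 and Slbp, genes of nucleotide supply and histone mRNA, had no CHR match and 0, 1 and 3 CCAAT matches. Over the G2/M list, 28 of 37 genes with a window held CHR and 30 held CCAAT. Over the G1/S list the counts were 3 and 13 of 23, and 10 of the 23 held 1 of 4 E2F sequences (TTTCCCGC, TTTGGCGC, TTTCGCGC, TTTGCCGC), as did 1 of the 37 G2/M genes. Of all 32851 windows, 17.9% held CHR, 37.4% CCAAT and 2.26% E2F letters. A match is only a run of letters, and overlapping CCAAT matches on both strands were each counted.

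Along the cycling sum the mitotic genes stood higher at each step, and the replication genes followed no such order. The sum is itself a count of cell cycle genes and was used by the rule. The rise of mitotic genes along it is thus a description and not independent of the sum. At a sum of 3 to 5 UMIs, the 28 G1/S genes stood at 2844 CPM in WT (33 cells) and 4340 CPM in cKO (27 cells), and the 42 G2/M genes at 2354 and 5242 CPM. At 6 to 10 UMIs (34 and 16 cells) the G1/S genes stood at 4774 and 3251 CPM and the G2/M genes at 6931 and 7698 CPM, and at 11 to 20 UMIs (27 and 12 cells) the G2/M genes at 10249 and 12669 CPM. Over 20 UMIs (58 and 54 cells) they reached 16079 and 17110 CPM, while the G1/S genes stood at 3450 and 2921 CPM. G1/S levels were highest at 11 to 20 UMIs in WT, 5151 CPM, and at 3 to 5 UMIs in cKO. The 4 ranges hold different numbers of cells, and the bins with 12 and 16 cKO cells rest on few cells.

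The median of G2/M UMIs per cell was 86.5 in WT and 156 in cKO, at median depths of 10845.5 and 12130 UMIs. The median of G1/S UMIs was 37 and 36. In 45 of 152 WT cells (29.6%, 22.5 to 37.5) the G1/S UMIs outnumbered the G2/M UMIs, and in cKO in 15 of 109 cells (13.8%, 7.91 to 21.7). The difference was -15.8 percentage points (-25.7 to -5.19), an interval that leaves out 0 for the sampling of cells alone. By the split described below, the shares were 29.0% (20.1 to 39.4) and 10.3% (3.89 to 21.2) in Olig cells, 22.2% (8.62 to 42.3) and 23.8% (8.22 to 47.2) in Eomes cells and 31.0% (15.3 to 50.8) and 13.8% (3.89 to 31.7) in cells with neither. Whether the sets differed was not tested. The cKO cells were somewhat deeper, and the part of depth in these medians was not tested.

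**Figure D2:**
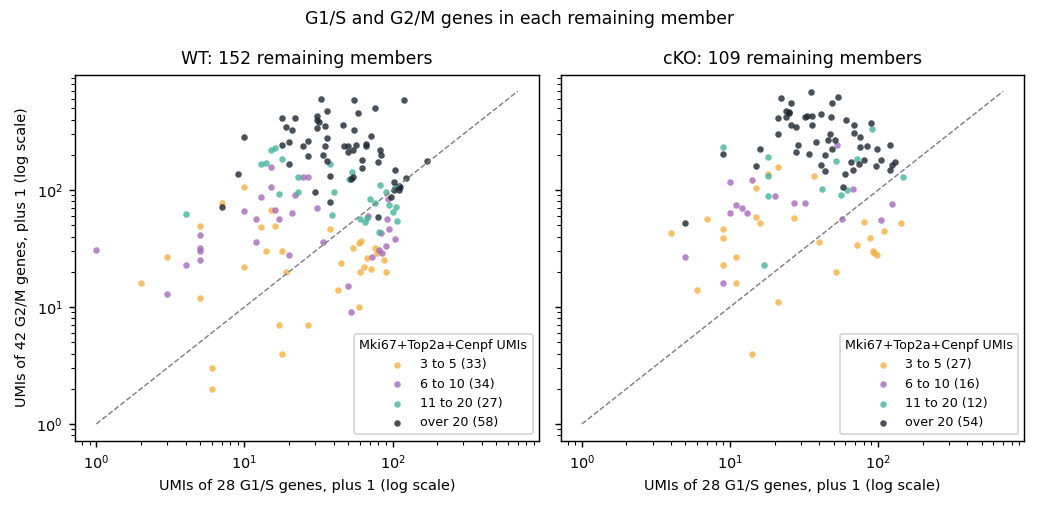
UMIs of the 28 G1/S genes (x axis) against UMIs of the 42 G2/M genes (y axis), each plus 1 on a log scale, with 1 point per remaining member, a panel per library and colours for 4 ranges of the cycling sum. Points below the dashed line of equal counts are the 45 WT and 15 cKO cells in which G1/S UMIs outnumbered G2/M UMIs.

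Among markers of progenitor type, those of radial glia were widespread and Eomes was in a minority. Pax6, the transcription factor of dorsal radial glia, was in 65.8% of the remaining WT and 83.5% of the cKO members (30.9% and 49.5% after thinning to 3000 UMIs) at 124.3 CPM (108.7 to 141.4) and 227.6 CPM (204.2 to 252.9). Slc1a3, a glutamate transporter of radial glia, stood at 1061 and 931 CPM. Fabp7, a fatty acid binding protein of the same cells, stood at 6783 and 3860 CPM. Eomes was in 22.4% and 21.1% of cells at 79.8 CPM (67.4 to 93.8) and 111.8 CPM (95.6 to 130). Noncycling cells with at least 2 Eomes UMIs held it at 757 and 661 CPM, and remaining members chosen at the same limit and with fewer than 2 Olig UMIs held 491 and 527 CPM.

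Olig1 and Olig2 were in more of the cells than Eomes. Olig1 and Olig2, transcription factors of the oligodendrocyte lineage and of gliogenic progenitors, were in 63.8% and 60.5% of the remaining WT members and in 56.0% and 43.1% of the cKO members. After thinning, the shares were 55.7% and 41.6% in WT and 37.4% and 20.6% in cKO. Egfr, the receptor of epidermal growth factor, was in 46.1% and 53.2% (18.8% and 15.9% after thinning, when Eomes was in 18.8% and 17.8%). Sox10, a factor of committed oligodendrocyte precursors, was in 1.32% and 0.917%, in cells chosen to lack Pdgfra. Other genes of the glial progenitor list were also below Eomes, with Nkx2-2 in 14.5% and 10.1%, Cspg4 in 3.29% and 0.917% and Gpr17 in none of the cells. More of the cells thus carried Olig1 or Olig2 than Eomes.

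Free RNA from other cells gives a few UMIs in every droplet, and microglia served as a measure of it. The 66 WT and 33 cKO microglia cells had a median of 9995.5 and 12051 UMIs, close to the remaining members. Eomes was in 0% and 3.03% of them, Pax6 in 0% and 6.06%, Olig2 in 4.55% and 0%, and Sox2 in 3.03% and 15.2%. Olig1 was in 6.06% and 3.03%, Slc1a3 in 18.2% and 15.2% and Fabp7, the most abundant of these genes, in 47.0% and 36.4%. Sp9, a ventral factor that the rule did not use, was in 4.61% and 2.75% of the remaining members, close to or below the 4.55% and 9.09% of microglia cells, while it stood at 483 and 514 CPM in cycling Dlx cells. Gad1, the GABA-synthesizing enzyme, gave 6 and 0 UMIs.

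**Figure D3:**
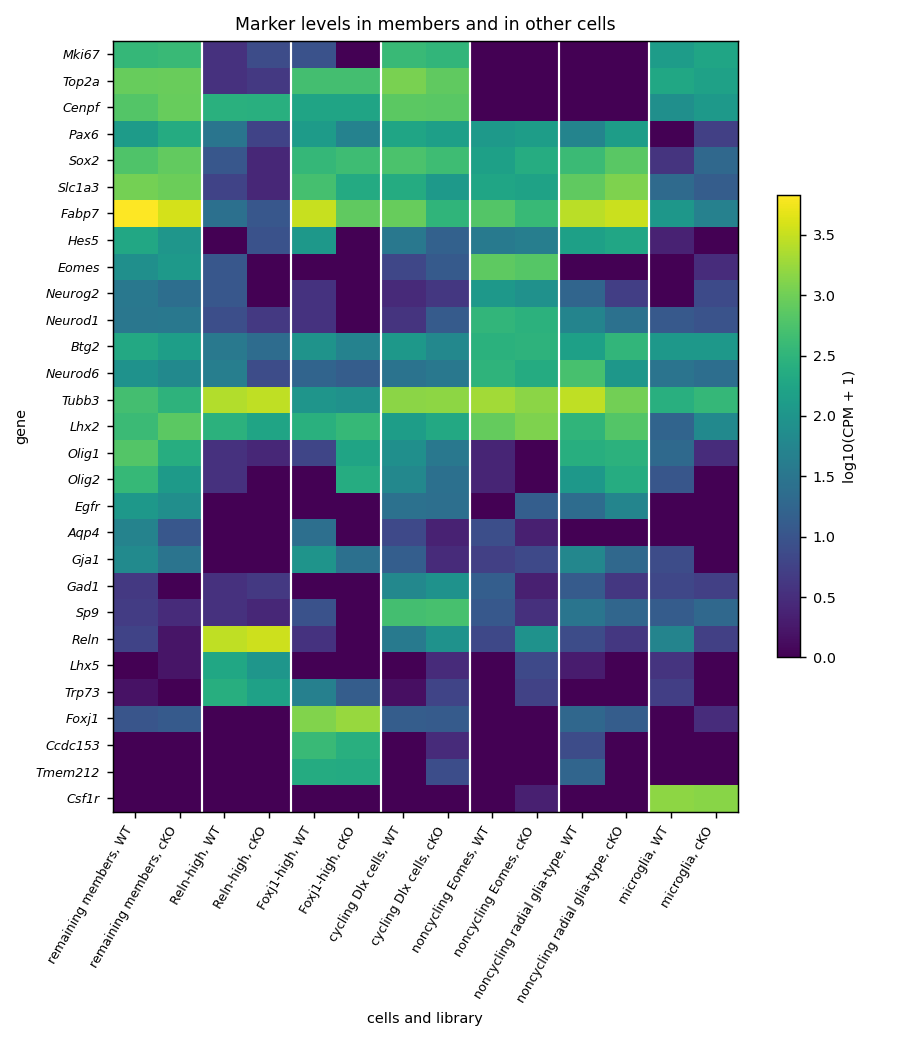
Levels of 29 marker genes (rows) in 7 groups of cells for WT and cKO (columns), drawn as colour for log10(CPM + 1). Eomes is brightest in the noncycling Eomes cells at 757 and 661 CPM, Sp9 in the cycling Dlx cells at 483 and 514 CPM, Reln in the Reln-high cells, and Csf1r in microglia at 1499 and 1399 CPM.

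Olig and Eomes transcripts were mostly found in different cells. At least 1 UMI of Olig1 or Olig2 was in 103 of 152 cells in WT (67.8%, 59.7 to 75.1) and in 68 of 109 in cKO (62.4%, 52.6 to 71.5), and at least 1 of Eomes in 34 and 23. Only 7 and 3 cells had both, and 22 and 21 had neither. Cells with Olig1 or Olig2 often also had Egfr (69 and 53 cells). Of the 31 and 22 members with at least 2 Eomes UMIs, Sox2 was in 29 and 21, Pax6 in 25 and 18, and Slc1a3 in 25 and 16. Neurog2, the proneural factor upstream of Eomes, was in 17 and 11 of them, and Neurod1, which follows Eomes, in 15 and 15.

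Sub-groups by UMIs of Eomes and of radial glia genes told the same in numbers. With at least 3 UMIs of Sox2, Hes5 and Slc1a3 and fewer than 2 of Eomes, 129 of 194 WT members (66.5%) and 88 of 140 cKO members (62.9%) were of the radial glia type. A further 27 (13.9%) and 20 (14.3%) passed both limits, 4 and 2 the Eomes limit alone, and 34 (17.5%) and 30 (21.4%) neither, of which 23 and 27 were Reln-high. The interval of each of the 4 differences between libraries included 0. After thinning to 3000 UMIs, 8 of 191 and 11 of 138 members passed the Eomes limit alone and 6 and 0 passed both, so the group with both depended on depth. These are ranges of UMIs and not cell types: 9 and 3 members had exactly 2 Eomes UMIs, and 6 and 1 exactly 1.

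To see how the cells varied among themselves, the remaining members were also split at 2 UMIs of Olig1 and Olig2 together and 2 of Eomes, a split made after the values were seen. Olig cells numbered 93 in WT (61.2%, 52.95 to 68.97) and 58 in cKO (53.2%, 43.4 to 62.8), and Eomes cells 27 (17.8%, 12.04 to 24.78) and 21 (19.3%, 12.3 to 27.9). Cells with neither numbered 29 (19.1%) and 29 (26.6%), and 3 and 1 had both. Only 7 and 9 cells lay just under the Olig limit at 1 UMI, and 4 and 1 under the Eomes limit. Olig cells held a median of 15 Olig UMIs in WT and 7 in cKO. The split rests on these UMIs, so a set may not hold like cells in both libraries.

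Cells of each set carried further genes that the split did not use. Aldh1l1, a folate enzyme of the astrocyte lineage, stood at 276 and 119 CPM in Olig cells and at 0 and 1 UMIs in Eomes cells. Egfr stood at 161 and 126 CPM in Olig cells and at 1 and 3 UMIs in Eomes cells. Neurog2 and Neurod1 gave 45 and 30 and 40 and 46 UMIs in Eomes cells, and no more than 2 UMIs in Olig cells of either library. Emx1, a transcription factor of the dorsal telencephalon, stood at 152 and 205 CPM in Eomes cells and at 17.43 and 21.01 CPM in Olig cells. Lhx2, a factor of cortical progenitors, stood at 840 and 1174 CPM in Eomes cells and at 266 and 451 CPM in Olig cells. By the genes named here, Eomes cells were the more dorsal and neurogenic and Olig cells the more glial, in both libraries. Btg2, an intermediate progenitor gene, did not follow in cKO (338 and 99.2 CPM in Eomes cells, 190 and 146 CPM in Olig cells). Tubb3 was higher in Eomes cells (442 and 452 against 236 and 273 CPM), but Stmn2, a neuronal gene, was lower (59.5 and 89.0 against 172 and 226 CPM). In Olig cells 109 of 207 WT and 122 of 183 cKO Stmn2 UMIs came from 1 cell each. Cells with neither held Aldh1l1 at 86.7 and 155 CPM, in cKO above the Olig cells.

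Turning to the comparison of the libraries, members were a somewhat smaller share of kept cells in cKO. They made up 2.87% (2.48 to 3.29) of kept cells in WT and 2.30% (1.94 to 2.71) in cKO, a difference of -0.565 percentage points (-1.12 to -0.00328). With at least 1000 genes and at most 5% mitochondrial UMIs per cell, the difference was -1.27 points. The remaining members alone made up 2.25% (1.91 to 2.63) and 1.79% (1.47 to 2.16), a difference of -0.454 (-0.951 to 0.0455), an interval that includes 0. Foxj1-high members made up 0.251% and 0.0658%, or 17 and 4 cells, and Reln-high members stood at 0.355% and 0.444%. For comparison, cycling Dlx cells made up 3.10% and 1.81% of kept cells, a difference of -1.29 points (-1.84 to -0.751).

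For the comparison of genes, UMIs were summed over the cells of each library and ratios of cKO over WT were taken on the log2(CPM + 10) scale, among genes with at least 20 UMIs. Of 11322 genes in the members, 733 (6.47%) were at least 1.5-fold higher in cKO and 1509 (13.3%) at least 1.5-fold lower, 19.8% in either direction. In the remaining members 887 (8.91%) of 9952 genes were higher and 1303 (13.1%) lower. In all other kept cells, with many more UMIs, 511 (3.2%) of 15974 genes were higher and 1463 (9.16%) lower. These shares are the background for the counts of each gene list below. The lists were chosen with earlier results of these data known, so their counts are a description and no independent support. At 20 UMIs a gene can pass such a fold by counting error, so the named genes were also required to have at least 50 UMIs in a library and intervals that did not overlap.

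Ezh2, the methyltransferase of Polycomb repressive complex 2, had the lowest ratio of the named genes in the remaining members. It gave 639 UMIs in 138 of 152 WT cells and 58 UMIs in 43 of 109 cKO cells, which is 346.7 CPM (320.3 to 374.7) against 38.4 CPM (29.1 to 49.6). Its log2 ratio was -2.88. The ratio in all other kept cells was -2.20. Ezh2 was also lower in cKO in cycling Dlx cells (1116 and 87 UMIs), noncycling Eomes cells (151 and 4) and microglia (54 and 6). The other 9 measured genes of the complex stood, as a sum, at 797.6 and 906.4 CPM, a log2 ratio of 0.18 (0.08 to 0.29). Aebp2, an accessory subunit, was higher in cKO at 0.66, and Suz12, a core subunit, stood at 0.54. The low level of Ezh2 was thus not shared by the rest of the complex and not particular to the members. An opposite-strand gene, Gm26625, overlaps Ezh2, and whether counting used strand was not stated in the sources used here.

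Further genes that were lower in cKO in the remaining members were also lower in other kept cells. Rexo2, an oligoribonuclease, gave 228 and 25 UMIs, a log2 ratio of -2.33 (-1.62 in other kept cells). Mrpl14 and Mrpl36, proteins of the mitochondrial ribosome, had ratios of -2.24 and -1.83 (-2.32 and -1.91 elsewhere), and Coa3, an assembly factor of cytochrome oxidase, -1.88 (-2.01). Dynll1, a dynein light chain, gave 2222 and 509 UMIs, a ratio of -1.81 (-2.04). Ifrd1 and Btbd17 both stood at -1.96 (-1.45 and -1.35 elsewhere), and Fam212b at -1.87 (-0.82). Prmt2, a protein arginine methyltransferase, stood at -1.79 (-1.28). The ratio elsewhere was thus close to that of the members for Mrpl14, Mrpl36, Coa3 and Dynll1, and nearer to 0 for the others. Mrpl14, Mrpl36, Coa3 and Ifrd1 overlap genes on the opposite strand, and Dynll1 has a near-identical copy, Gm6788.

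Among the genes higher in cKO, Gm8730 gave 55 UMIs in WT and 1173 in cKO in the remaining members, a log2 ratio of 4.30. It is a processed pseudogene nearly identical to the ribosomal protein gene Rplp0, which itself stood at -0.06, and as counting can split reads between such copies the value is uncertain. Per1, a clock gene and glucocorticoid target, gave 29 UMIs in 21 WT cells and 181 UMIs in 64 cKO cells, a ratio of 2.33 against 1.24 in other kept cells. Arrdc4, an arrestin-related regulator of glucose uptake, gave 22 and 106 UMIs (1.87, against 2.32 elsewhere), and Dyrk2, a kinase, 13 and 82 UMIs (1.91, against 1.53). Cirbp, the cold-inducible RNA binding protein, gave 700 and 1497 UMIs, with a UMI in 142 of 152 and all 109 cells, a ratio of 1.36 against 0.59. Gm3550 gave 61 and 220 UMIs (1.85, against 0.28), but it is nearly identical to Rpl29 and overlaps Cdc25c, a phosphatase of mitotic entry, on the opposite strand. Cdc25c itself gave 113 and 139 UMIs, a ratio of 0.52.

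Smaller counts stood behind the rest of the genes higher in cKO. Fkbp7, a prolyl isomerase of the endoplasmic reticulum, gave 18 and 81 UMIs, a ratio of 1.69. Gtf2ird1 gave 47 and 145 UMIs (1.58), Nedd9, a focal adhesion scaffold, 23 and 83 (1.53), and Rlf 28 and 92 (1.49). Pias1, a SUMO ligase, stood at 1.39, Rnf146, a ubiquitin ligase, at 1.38 and Pdzrn3 at 1.37. In other kept cells Nedd9 and Pdzrn3 stood at 0.32 and 0.17. Eml5, Tmem178 and Vps37d had ratios of 1.34, 1.10 and 1.33 in the remaining members. Dyrk2, Gtf2ird1, Nedd9, Rnf146 and Eml5 overlap genes on the opposite strand, and Gtf2ird1 also has a near-identical copy, Gm28883.

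**Figure D4:**
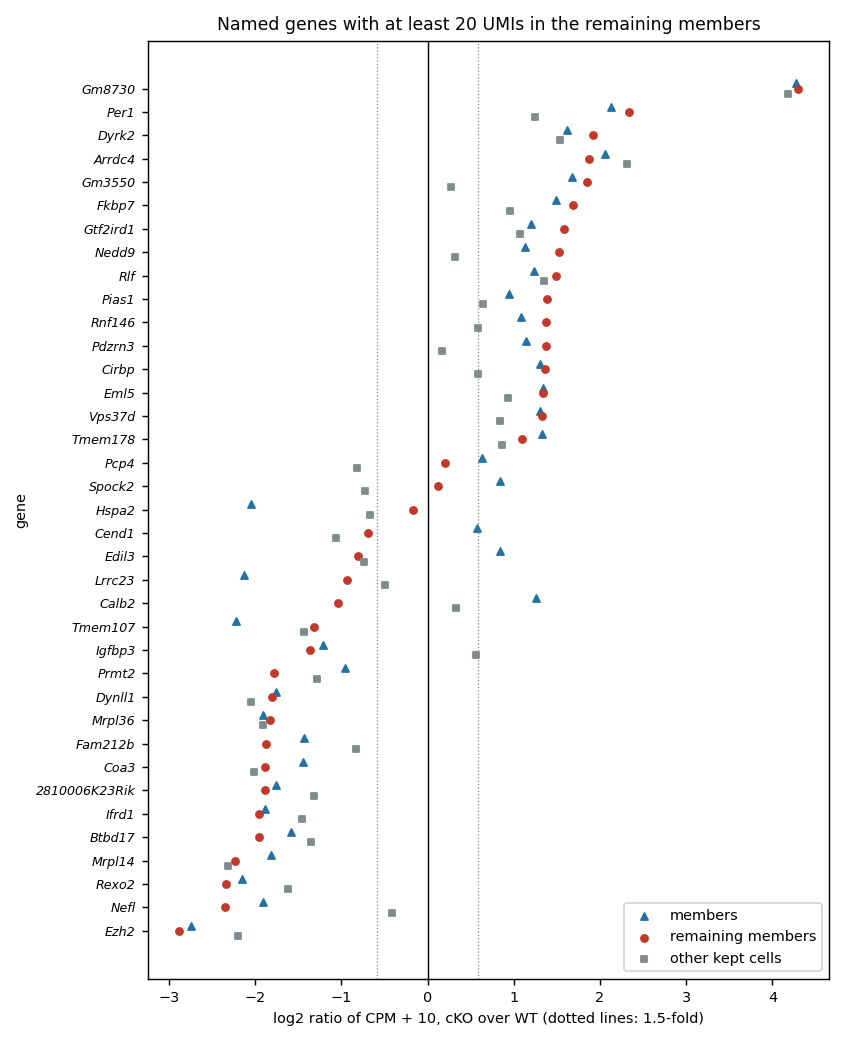
Log2 ratio of cKO over WT (CPM + 10) of the 37 named genes with at least 20 UMIs in the remaining members (rows), as points for all members, the remaining members and all other kept cells, with dotted lines at 1.5-fold. For Ezh2 the 3 values are -2.74, -2.88 and -2.20 and for Gm8730 4.28, 4.30 and 4.19, whereas Calb2 stands at 1.25, -1.04 and 0.33.

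Several genes with the most extreme ratios over all members came from the minorities. Crip3, Ccdc113, Tm4sf1, Lrrc23, Zmynd10 and Anxa1, most of them genes of ciliated cells, had ratios between -2.01 and -2.39 in the members, with 91.3% to 98.8% of their UMIs in Foxj1-high cells. In the remaining members none of them had more than 19 UMIs in a library. Lrrc51, Hspa2 and Tmem107, a protein of the ciliary transition zone, had 87.3%, 87.9% and 83.9% of their UMIs in Foxj1-high cells. Tmem107 alone of these was also low in the remaining members (70 and 14 UMIs, -1.32) and elsewhere (-1.43). All 382 WT UMIs of Lyz2 came from 1 cell. On the other side Lhx1os and Calb2, a calcium-binding protein of neurons, had ratios of 1.36 and 1.25 with 100% and 95.5% of their UMIs in Reln-high cells, and Calb2 stood at -1.04 without them. Cells of these kinds were unequally common in the libraries, 17 and 4 for Foxj1-high and 24 and 27 for Reln-high.

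Nefl, a neurofilament gene, was among the lowest genes of the remaining members at -2.35, but 73 of its 82 WT UMIs came from 1 cell. Igfbp3, a binding protein of insulin-like growth factors, gave 73 UMIs in 21 WT cells and 14 in 11 cKO cells, a ratio of -1.36 against 0.56 in other kept cells.

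Read by list, replication and mitotic genes stood on opposite sides. Of all genes tested in the remaining members, 13.1% were lower in cKO and 8.91% higher. Of 28 G1/S genes there, 7 were lower in cKO and none higher, with a median log2 ratio of -0.31 against -0.02 over all genes tested. The 7 were Tyms, the thymidylate synthase, at -0.83 (317 and 140 UMIs), Gins2 and Cdc45 of the replicative helicase, the chromatin remodeller Hells, Prim1 and Pola1 of the primase, and Rfc2 of the clamp loader. In other kept cells, which also hold the cycling Dlx cells, 9 of the 28 were lower. The sum of the list stood at -0.18 (-0.24 to -0.13) in the remaining members and -0.44 in other kept cells, and within the split at -0.16 in Olig cells, 0.11 (-0.001 to 0.23) in Eomes cells and -0.50 in cells with neither. Of 42 G2/M genes 10 were higher and 2 lower, with a median of 0.19. Kif23, a kinesin of the midbody, stood at 0.94 (162 and 268 UMIs), Cdca3 at 0.74, Aurkb, a kinase of chromosome segregation, at 0.72, Cenpa at 0.71 and Cdc20, an activator of the anaphase complex, at 0.66, with Aurka, Cks2, Racgap1, Gtse1 and Ccnf the others. Smc4, a condensin subunit, and Ttk, a spindle checkpoint kinase, were lower at -0.88 and -0.90.

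In other kept cells the G2/M genes stood on the other side of 0, with none of 42 higher and 8 lower. The sum of the list stood at 10934 CPM in WT and 13662 CPM in cKO in the remaining members, a ratio of 0.32 (0.29 to 0.35), and at -0.53 in other kept cells. Hmgb2, the most abundant gene of the list, held 4661 and 5717 of the UMIs, and without it the ratios were 0.23 and -0.68. Between the sets of cells the ratio was 0.06 (-0.01 to 0.13) in Eomes cells, 0.21 (0.17 to 0.25) in Olig cells and 0.87 (0.81 to 0.94) in cells with neither. The members were chosen by their cycling sum, and the other kept cells also hold the cycling Dlx cells, so the difference between them is not independent of the choice and was not tested.

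Other lists tied to the cycle differed in their counts. Of 15 cyclins, kinases and inhibitors of G1, Cdkn1b, an inhibitor of cyclin-dependent kinases, was higher at 0.66 (194 and 260 UMIs) and Rbl1, a relative of the retinoblastoma protein, at 0.72, with a list median of -0.12. None of 16 genes of primary microcephaly and the centrosome was past the fold, with a median of 0.08. Of 20 genes of DNA damage response and repair, 6 were lower and none higher (median -0.29), where 13.1% of all genes were lower. Among the 6 were Xrcc6, a Ku subunit, at -1.23 (96 and 25 UMIs), Prkdc at -0.93, Xrcc1 at -0.85, Chek1 at -0.84 and Parp1 at -0.62. In other kept cells 5 of the 20 were lower, where 9.16% of all genes were lower. The sum of the list stood at -0.19 (-0.27 to -0.11) in the remaining members and -0.69 elsewhere. Other kept cells also hold the cycling Dlx cells, 3.10% of kept cells in WT and 1.81% in cKO. The part of this in the lower sum was not tested. Xrcc6 overlaps Desi1 on the opposite strand. Of 11 p53 targets only Mdm2, the ubiquitin ligase of p53, was higher, at 0.75 against 1.05 in other kept cells.

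Radial glia genes stood on both sides. Of 16 genes, 4 were lower in cKO and 1 higher, with a median of -0.11. Fabp7 gave 12501 and 5834 UMIs, a ratio of -0.81, Hes5 and Hes1, effectors of Notch signalling, stood at -0.89 and -0.61, and Hopx, a marker of outer and glial radial glia, at -0.80. Pax6 was higher at 0.82, with 229 UMIs in 100 WT cells and 344 in 91 cKO cells, against -0.18 in other kept cells. Within the split, Fabp7 was lower in Olig cells (9333 and 4513 CPM) and in Eomes cells (480 and 226 CPM). In cells with neither it was higher (3175 and 5350 CPM). Olig UMIs, which set the split, were themselves fewer in cKO, so the sets compared may not hold like cells. Pax6 was higher in Olig cells (1.00) and in cells with neither (0.98), and stood at -0.25 in Eomes cells, where 64 and 58 UMIs leave an interval of -0.80 to 0.27 for the ratio without pseudocount.

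Olig1 and Olig2 were lower in cKO, as 2 of 6 tested glial progenitor genes (13.1% of all genes were lower). Olig1 gave 1192 and 362 UMIs, which is 646.8 CPM (610.6 to 684.5) against 239.5 CPM (215.5 to 265.5), a ratio of -1.40, and Olig2 gave 674 and 185 UMIs, a ratio of -1.50. Among Olig cells the median of Olig1 and Olig2 UMIs was 15 in WT and 7 in cKO, with ranges of 2 to 84 and 2 to 39. All other kept cells showed ratios of -1.38 and -0.95, but noncycling radial glia-type cells stood on the other side, at 0.21 and 1.04. The other genes of the list past the filter, among them Egfr at -0.46, were within the fold. The 5 of the 6 astrocyte genes that passed the filter of 20 UMIs were lower, among them Aqp4, the water channel, at -1.63 (95 and 15 UMIs), Gfap at -1.30, Gja1 at -0.997 and Aldh1l1 at -0.84. The sum of all 6 genes stood at 719 and 361 CPM, a ratio of -0.996 (-1.14 to -0.85), and at -1.28 in other kept cells. In cells with neither Olig nor Eomes the sum stood at -0.14 (-0.43 to 0.16) and Aldh1l1 at 0.77, where the Olig cells stood at -1.13 and -1.15.

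Patterning factors of the dorsal telencephalon stood on the higher side. Of 9 genes, 5 were higher and none lower, with a median of 0.61. Among them Nr2f1, an areal factor, stood at 0.91 (828 and 1285 UMIs), Lhx2 at 0.81 (764 and 1112), Tfap2c at 0.76 and Otx1 at 0.61. Emx1 stood at 0.57. In other kept cells the ratios of Nr2f1 and Lhx2 were 0.65 and 0.80. The sum of the list was higher in Olig cells (0.83), Eomes cells (0.60) and cells with neither (0.83). In Reln-high members the genes stood on both sides, with Lhx2 at 290.4 and 174.3 CPM and Emx2 at 319.9 and 425.1 CPM. Nr2f1 overlaps a gene on the opposite strand.

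Neuronal genes gave no single direction. Of 8 intermediate progenitor genes, Rnd2, a small GTPase of migrating neurons, was higher at 0.71, Eomes stood at 0.44 and Neurog2 at -0.38, and the list median was -0.05. Of 9 projection neuron genes, Tbr1 was higher at 0.64 (41 and 61 UMIs), and Tubb3 and Stmn2 were lower at -0.68 and -0.97. For Stmn2, a tubulin-binding protein of neurons, 205 and 146 of the 660 WT UMIs came from 2 cells, and 122 of the 268 cKO UMIs from 1 cell. For Tubb3, 507 of the 895 WT UMIs and 189 of the 454 cKO UMIs came from 3 cells each. Microglia cells, the measure of free RNA, held Tubb3 at 264 and 349 CPM (in 81.8% and 63.6% of cells). They held Stmn2 at 216 and 224 CPM, and the part of free RNA in the levels of these genes was not tested. Over all members the sum of the list stood at 0.28, and over the remaining members at -0.59 (-0.69 to -0.50). Within the split it stood at 0.16 (0.01 to 0.31) in Olig cells, 0.09 (-0.12 to 0.31) in Eomes cells and -2.29 (-2.47 to -2.11) in cells with neither, where 3 of the 29 WT cells held 374 of 419 Stmn2 and 405 of 458 Tubb3 UMIs. Its direction thus depended on which members were taken.

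Clock and hormone-responsive genes were the list with the largest share past the fold in 1 direction apart from the astrocyte genes. Of 17 genes, 10 were higher and none lower, with a median of 0.71, where 8.91% of all genes were higher. As this list was chosen with earlier results of these data known, the count and its rank are a description. They were Per1, Per2, Per3 (46 and 107 UMIs, 1.21), Dbp, Ciart and Cry1 of the clock, and Klf9, Ddit4, Txnip and Arrdc4, which respond to glucocorticoid or to glucose. The sum stood at 346.7 and 752.2 CPM, a ratio of 1.12 (0.98 to 1.26), and at 0.82 in other kept cells. It was 1.22 in Olig cells, 1.24 in cells with neither and 0.52 (0.11 to 0.94) in Eomes cells, where Per1 gave only 1 and 3 UMIs.

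Signalling lists were mixed. Of 15 Notch genes 3 were higher and 2 lower, the latter Hes1 and Hes5, and Notch1 stood at 0.55. Of 20 genes of growth factor and morphogen pathways 3 were higher and none lower: Gli3, a transcription factor of hedgehog signalling, at 1.30 (71 and 165 UMIs), Fgfr2 at 0.99 and Igf1r at 0.84. In other kept cells Gli3 stood at 0.41, Fgfr2 at 0.05 and Igf1r at 0.01. Of 11 immediate early and heat shock genes Dnajb1 was higher at 0.61, and Junb, Nr4a1 and Ier2 were lower at -0.76, -0.73 and -0.64.

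Genes of nucleic acid sensing and of interferon and NF-kB responses were sparse. Of the 12 genes of cytosolic nucleic acid sensing, 3 passed the filter of 20 UMIs and none of them the fold. The whole list summed to 65.1 and 41.7 CPM, a ratio of -0.64 (-1.11 to -0.19). Over all members 2 of the 3 were lower, and in other kept cells the sum stood at -0.53. Of the 14 interferon-stimulated genes 3 passed the filter. The sum of the whole list stood at 118 and 124 CPM, a ratio of 0.07 (-0.22 to 0.36). Of 9 NF-kB pathway genes, Traf6, a ubiquitin ligase of the pathway, was higher at 1.03 (27 and 61 UMIs) and Nfkbia, the inhibitor of NF-kB, at 0.65 (83 and 115), with a median of 0.22.

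Markers of other cell types stood low in the remaining members. The lists of microglia and endothelial genes outside the rule summed to 1.09 and 0 CPM and to 1.63 and 0 CPM, and no gene of them passed the filter. Pdgfrb, a receptor of mural cells, gave 7 and 18 UMIs (0.67). Mural and fibroblast genes summed to 16.3 and 25.8 CPM, ependymal genes to 12.5 and 13.2 CPM, and haemoglobin and erythroid genes to 10.9 and 5.29 CPM. Over all members the ependymal genes summed to 297 and 116 CPM. The Foxj1-high cells had been set aside by Foxj1, Ccdc153 and Tmem212, which are genes of that list. The rule itself had limited other microglia, endothelial and mural genes. Low levels of these 4 lists thus follow in part from the choice of cells.

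**Figure D5:**
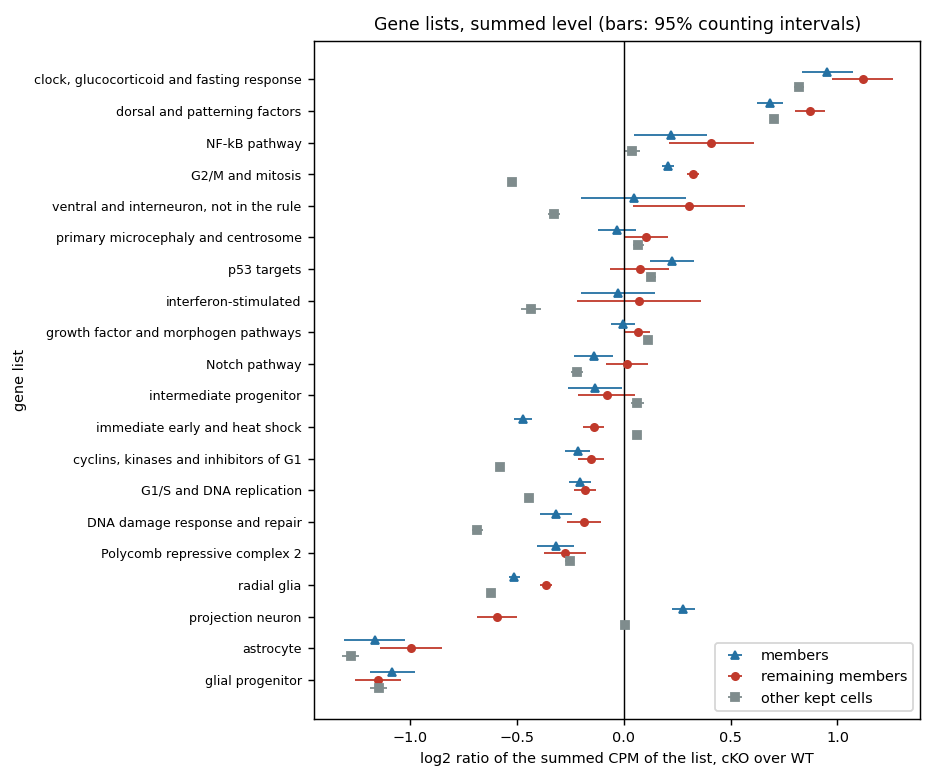
Log2 ratio of the summed CPM of each gene list (rows), cKO over WT, as points for all members, the remaining members and all other kept cells, with bars for 95% counting intervals. G2/M genes lie above 0 in the members (0.21) and the remaining members (0.32) and below it in other kept cells (-0.53), clock and dorsal lists lie above 0 in each of the 3, and astrocyte and glial progenitor lists below 0 in each.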

How the data were processed

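Cells of the cerebral cortex of mice at postnatal day 0 were profiled by 10x single-cell RNA-seq in 2 libraries, 1 for WT and 1 for cKO. The deposited matrices hold raw UMI counts per gene and barcode, as the authors made them. The submitters' processing notes name mm9, STAR, Cell Ranger 2 and Seurat, and the file headers name software version 3.0.1. The annotation, the calling of cells and the use of strand are not given in the sources used here.

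Members were taken by the rule stated above from barcodes with at least 500 genes and at most 10% mitochondrial UMIs. The members and the 27 gene lists were chosen with earlier results of these data known. No test was run, since each group was 1 library. UMIs were summed per library and given as CPM with exact Poisson intervals, log2 ratios of CPM + 10 and exact conditional intervals of the ratio. Shares were given with Clopper-Pearson intervals, and all intervals were at 95%. Differences between shares had Newcombe intervals built from the Clopper-Pearson bounds, which are approximate. Ratios without the pseudocount were used for sums of lists. Intervals cover counting error only. The named genes were the 12 highest and 12 lowest ratios in the members, among genes with at least 50 UMIs in a library and intervals that did not overlap, and the 5 highest and 5 lowest differences from other kept cells. The 10 genes highest over noncycling progenitors were added. Mitochondrial, haemoglobin, Xist, Tsix, Y-linked and rule genes were left out. The same rule over the remaining members was added after the values were seen, as were the kinds of members and the split by Olig and Eomes. To compare shares across depths, cells were thinned to 3000 UMIs.

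Doublet scores came from Scrublet, whose automatic threshold marked 165 WT cells (2.44%), 4 of them members, and no cKO cell, so no doublets were removed. Promoters were read from RefSeq (GRCm38.p6), and overlapping genes from GENCODE. The scripts were tested on simulated data. Python 3.11.15, numpy 2.4.6, scipy 1.17.1, pandas 2.3.3, scanpy 1.11.5, BLAST 2.17.0, R 4.3.3 and edgeR 4.0.16 (for TMM factors alone) were used. Some genes of the lists are not reported here by name, but remain in the counts and sums of their lists.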

Additional observations from a re-analysis of the deposited data

Results flagged for a closer look

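For 7 named genes and 4 summed lists the counting intervals of the log2 ratio (cKO over WT, no pseudocount) lay on opposite sides of 0 in the members and in all other kept cells. The difference was not tested, since each group was 1 library. Ccdc151, a ciliary gene, stood at -2.78 and Igfbp3 at -2.13 in the members. Cend1 stood at 0.67, Edil3 at 0.99, Spock2 at 0.98, Ache, the acetylcholinesterase, at 1.34 and Pcp4 at 0.66. Most UMIs of Ccdc151 in the members lay in Foxj1-high cells (89.2%), and those of the latter 5 genes mainly in Reln-high cells. The genes of the rule, summed, stood at 0.12 in the members and -0.65 in other kept cells, where the members were chosen by these very genes, so that nothing is read from it. The G2/M genes stood at 0.21 and -0.53, the intermediate progenitor genes at -0.13 and 0.06, and the immediate early and heat shock genes at -0.47 and 0.06. Without the Reln-high, Foxj1-high and Lyz2-high cells, the latter 2 lists stood at -0.08 (-0.22 to 0.05), an interval that includes 0, and -0.14 (-0.19 to -0.09).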

How the results depend on the processing

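No paired analysis was possible because each group was 1 library. Of 373 log2 ratios of named genes and lists recomputed, 360 kept their direction. The genes had been named for their ratios in these same data, and many settings reused the same cells, so a kept direction says little. Over members of the radial glia type alone, Lyz2 stood at 0.11, Calb2 at -0.42, Cend1 at -0.40, Edil3 at -0.25 and Pcp4 at -0.54, the opposite of all members. Without the Reln-high, Foxj1-high and Lyz2-high cells, a choice made after the values were seen, Lyz2 stood at 0.0924, Anxa1 at 0.0162, Calb2 at -1.04, Cend1 at -0.69, Edil3 at -0.80 and Ache at -0.0562. The difference in the share of members was -1.27 points among cells with at least 1000 genes and at most 5% mitochondrial UMIs, against -0.565. The difference in the Eomes type was 5.80 points when the rule was applied to thinned cells, against -0.633. The counts of 733 higher and 1509 lower genes became 1356 and 2641 with a pseudocount of 1, 128 and 280 with 50, 66 and 393 at 2-fold, and 872 and 970 after thinning, when fewer genes were tested. Higher genes were 32.7% of those past the fold, and 47.3% after thinning. The causes were not tested. Removing called doublets, and the Eomes type alone (4 and 2 cells), were not run.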
